A study of Mus musculus with 574 samples.

Results

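Slc17a6, Slc17a7 and Slc17a8, the 3 genes of the vesicular glutamate transporters, were read by their symbols from the deposited tables of the developing mouse ventral midbrain, where they are 3 of 23706 genes in pools of cells and 3 of 25489 genes in single cells. They encode VGLUT2, VGLUT1 and VGLUT3. All libraries came from C57BL/6 mice heterozygous for Lmx1a-EGFP, a reporter in which cells that use the LIM homeobox gene Lmx1a make green fluorescent protein (GFP), so the GFP negative cells carry the reporter allele too and no group is without it. There were 24 pools, each of 100 sorted cells, with 6 pools for GFP positive and 6 for GFP negative cells at E13.5 (E for embryonic day) and the same at E10.5. Beside them stood 550 single cells, 24.9% of them from E10.5, 16.4% from E11.5, 32.4% from E12.5 and 26.4% from E13.5. RNA was sequenced with Smart-seq2, which copies full-length transcripts from single cells or small inputs. The labels name no embryo or litter, so a p-value between pools reflects the spread among pools alone, part of which may be technical, and the single cells of a stage count as 1 sample, described without p-values. The series asks how the lineages of midbrain dopamine neurons and of subthalamic nucleus neurons relate to each other.

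The vesicular glutamate transporters sit in the membrane of synaptic vesicles and load them with glutamate, driven by the proton pump of the same membrane, and a neuron that lacks all of them is not expected to release glutamate from vesicles. In the adult brain VGLUT1 prevails in the cortex and VGLUT2 in the thalamus, midbrain and brainstem, including the subthalamic nucleus, while VGLUT3 is found in scattered neurons whose main transmitter is often another one, such as serotonin or acetylcholine. Some midbrain dopamine neurons are known to use Slc17a6 alongside their dopamine genes. Levels below are RPKM, that is reads divided by transcript length in kilobases and by library size in M reads, a scale on which genes of different length can be compared, and a gene is called present in a cell at an RPKM of at least 10.

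Slc17a6 lies on chr7:51622006-51671119 and Slc17a7 on chr7:45163949-45176142, both on the plus strand, and Slc17a8 on chr10:89574020-89621253 on the minus strand (build GRCm38, GENCODE vM21). The 3 proteins are close relatives, so shared stretches of their transcripts are shown because a read inside one could not be assigned to a single member. The longest run shared by each pair, compared between 1 coding transcript a gene of 4137, 2915 and 4456 bases, is given here in lower case from 5′ to 3′ and lies in coding sequence.
Slc17a6 and Slc17a7, 21 bases: aacctgggcgtggccatcgtg
Slc17a6 and Slc17a8, 25 bases: tcatgagcggcctcggcttctgcat
Slc17a7 and Slc17a8, 17 bases: ggttcctatgctggggc
No run of 30 bases was shared by any pair.

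The 250 bases before the annotated starts are shown for Slc17a6, which carries most of the results, and for Slc17a7, which lies on the same chromosome and was almost never detected. They are from RefSeq (GRCm38.p6, plus strand, 5′ to 3′). Slc17a6 has 2 annotated starts, at chr7:51621580-51621829 and chr7:51624387-51624636 for the windows, and the Slc17a7 window is chr7:45163671-45163920. Motifs found are in capitals.
Slc17a6 first start: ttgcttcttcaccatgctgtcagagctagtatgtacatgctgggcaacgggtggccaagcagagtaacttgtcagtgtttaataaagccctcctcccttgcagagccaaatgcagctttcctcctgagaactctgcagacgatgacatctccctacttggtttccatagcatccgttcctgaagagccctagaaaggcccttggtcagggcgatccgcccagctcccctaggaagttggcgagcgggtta
Slc17a6 second start: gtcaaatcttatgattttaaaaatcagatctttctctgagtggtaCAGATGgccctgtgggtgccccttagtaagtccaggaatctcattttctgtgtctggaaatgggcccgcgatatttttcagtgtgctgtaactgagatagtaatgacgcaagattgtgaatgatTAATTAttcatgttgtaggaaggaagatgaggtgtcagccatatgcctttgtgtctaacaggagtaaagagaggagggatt
Slc17a7: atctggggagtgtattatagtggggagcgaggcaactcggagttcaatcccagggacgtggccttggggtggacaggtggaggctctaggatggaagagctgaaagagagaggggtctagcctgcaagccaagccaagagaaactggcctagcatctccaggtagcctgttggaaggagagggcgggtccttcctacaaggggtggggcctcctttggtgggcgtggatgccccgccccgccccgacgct
Searched on both strands were CAGATG, a form of the E-box (in 14.4% of 32851 mouse promoter windows), TAATTA, a homeodomain core that reads the same on both strands (4.84%), TGTTTAC, a forkhead core (3.17%), and AAAGGTCA, the Nr4a response element (1.34%). The window of the second Slc17a6 start held 1 CAGATG, at -205, and 1 TAATTA, at -81, counted from the start site. The other 2 windows held none of the 4 motifs. Of the 2 windows of Slc17a8, not printed, 1 held a forkhead core, TAATTA and the E-box form. A match of letters is a description of the window and not a binding site.

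Depth was estimated from the step between the lowest values, and the figures are rough. It came to 1.29 to 3.72 M reads for a pool, with a median of 2.75, and 0.407 to 7.41 M for a cell, with a median of 1.35. At that depth an RPKM of 10 for Slc17a6 is about 55.8 reads in the median cell. The median number of genes at an RPKM of at least 1 was 5748 per cell at E10.5, 3567 at E11.5, 4266 at E12.5, then 4287 at E13.5. Some GFP negative pools held blood: globin genes made up to 9.60% of the summed RPKM in E10.5 GFP negative pools and up to 3.13% in E13.5 GFP negative pools, against at most 0.0105% in any GFP positive pool. Other markers moved with GFP class at E10.5, where the 6 mesenchyme and pericyte genes summed to 5.44 to 28.8 RPKM in GFP positive pools, against 113.5 to 287 RPKM in GFP negative pools. In the test described below, 6 of 6 microglia and macrophage genes were lower in GFP positive pools at E10.5, against 8.64% of all tested genes. The part of these cells in the results on E10.5 pools was not tested, beyond rescaling without globin. The 8 listed marker genes of the ventral midbrain summed to 92.3 to 726 RPKM over all pools, with none at 0 throughout a group. The lowest sum was that of an E13.5 GFP negative pool. Such a sum cannot decide whether the label was met, because a few genes can carry it and no other tissue was compared. Whether GFP negative pools also held cells from outside the ventral midbrain was not tested.

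Slc17a6 was the member that carried the family's signal. It had 64.3, 75.7 and 116.9 RPKM (lowest, median and highest) in E13.5 GFP positive pools, 38.1, 46.9 and 52.02 RPKM in E13.5 GFP negative pools, 1.24, 2.57 and 8.63 RPKM in E10.5 GFP positive pools, and 1.91, 7.68 and 13.7 RPKM in E10.5 GFP negative pools. Every E13.5 pool was above every E10.5 pool, a separation that 12.8% of the 15871 genes tested showed in GFP positive pools, and 11.3% in the GFP negative class. In order of group means, E13.5 GFP positive came first, then E13.5 GFP negative, E10.5 GFP negative and E10.5 GFP positive, and the last 2 overlapped. Slc17a8 was low everywhere, with a highest value of 5.40 RPKM, and Slc17a7 was listed at 0 in 23 of 24 pools.

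**Figure D1:**
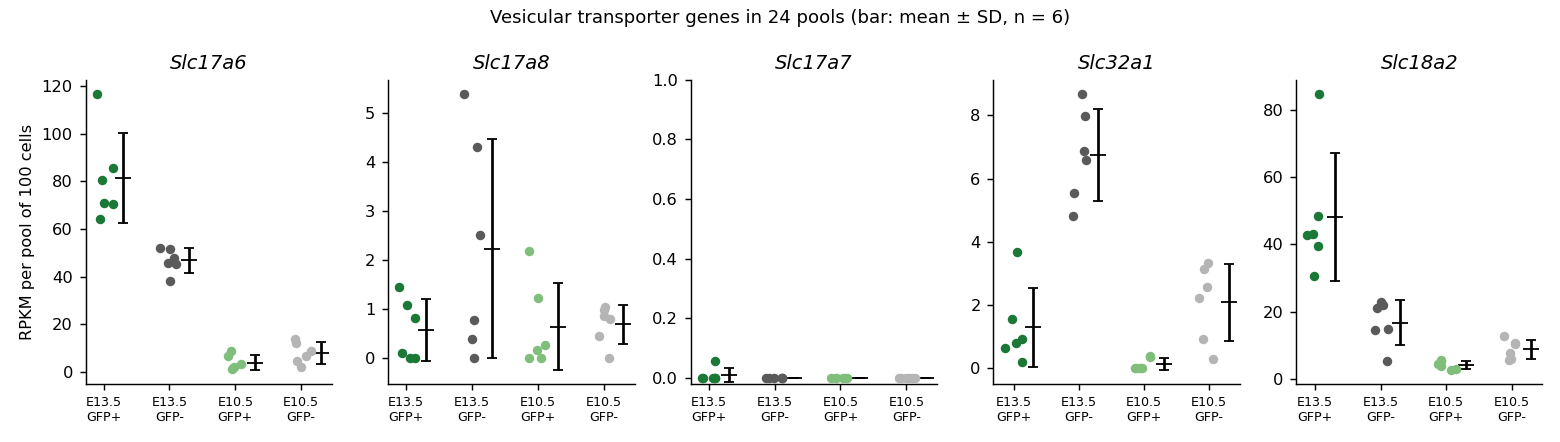
RPKM (y axis, a scale of its own in each panel) of 5 vesicular transporter genes in each pool, by stage and GFP class, with mean ± SD (n = 6 pools a group). Slc17a6 is above 38 RPKM in all E13.5 pools and below 14 RPKM in all E10.5 pools, Slc17a7 is at 0 in all but 1 pool, and Slc32a1 and Slc18a2 separate the GFP classes in opposite directions at E13.5.

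Tested with limma on log2(RPKM + 1) were the 15871 genes that reached an RPKM of 1 in 6 or more pools, and a difference was called at an adjusted p under 0.05. Slc17a6 and Slc17a8 passed this filter and Slc17a7 did not. Slc17a6 averaged 81.4 ± 18.95 RPKM in E13.5 GFP positive pools and 3.89 ± 3.04 RPKM in E10.5 GFP positive pools (SD, n = 6 each), 20.9-fold apart. On the log2(RPKM + 1) scale, which understates changes of low genes, the difference was 4.27 ± 0.34 (SE, limma adjusted p = 5.79e-11). In GFP negative pools it averaged 46.8 ± 5.14 RPKM at E13.5 and 7.98 ± 4.45 RPKM at E10.5, 5.86-fold apart, a difference of 2.59 ± 0.34 on the log2 scale (limma adjusted p = 5.41e-07). Thus 1 of the 2 members tested rose with stage in each GFP class, where 22.1% of all tested genes rose and 29.6% fell in GFP positive pools, and 19.7% rose and 26.9% fell in GFP negative pools, so a rise with stage is common in these data. In pools, fewer cells of a type and less RNA per cell cannot be told apart.

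Between GFP classes, Slc17a6 leaned in opposite directions at the 2 stages. At E13.5 the 6 GFP positive pools all lay above the 6 GFP negative pools and their mean was 1.74-fold as high, but the difference of 0.77 ± 0.34 on the log2 scale did not pass (limma adjusted p = 0.194). With only the 12 E13.5 pools in the fit, where the spread of Slc17a6 was smaller, it passed at the same size (limma adjusted p = 0.00466), and with a pseudocount of 10 it passed at 0.67 (limma adjusted p = 0.00811). At E10.5 the GFP positive mean was 0.487 times the GFP negative mean with overlapping values, a difference of -0.91 ± 0.34 on the log2 scale that did not pass (limma adjusted p = 0.0783). It passed with array quality weights (-1.04, limma adjusted p = 0.0217) and when any 1 of 3 pools was left out: GFP positive pool 3 (-1.15, limma adjusted p = 0.018), GFP positive pool 5 (-1.08, limma adjusted p = 0.0377) or GFP negative pool 5 (-1.20, limma adjusted p = 0.00825). Called genes made up 7.15% of those tested at E13.5 (3.42% higher, 3.74% lower in GFP positive pools) and 13.1% at E10.5 (4.51% higher, 8.64% lower), and a GFP positive group wholly above the GFP negative one was found for 1.82% of tested genes at E13.5.

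The GFP difference of Slc17a6 itself changed between the stages, by 1.68 ± 0.48 on the log2 scale towards GFP positive pools at E13.5 (limma adjusted p = 0.0341), a comparison in which 5.83% of tested genes were called, 3.93% in that direction. This call was close to the threshold. It was lost, with adjusted p between 0.0502 and 0.0686 and differences of 1.496 to 1.67, when any 1 of 11 of the 24 pools was left out: E13.5 GFP positive pools 3 and 4, E13.5 GFP negative pools 1, 2 and 3, E10.5 GFP positive pools 1, 4 and 6, and E10.5 GFP negative pools 1, 2 and 6. Neuronal genes moved the same way. Of 12 pan-neuronal genes, 10 were called in this comparison, all higher, with a median of 2.20 against -0.01 over all tested genes. At E10.5, 11 of the 12 were lower in GFP positive pools, against 8.64% of all tested genes. At E13.5, 2 of the 12 were lower, against 3.74% of all tested genes. The part of the share of neurons in the Slc17a6 values of pools was not tested.

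Slc17a8 had 0, 0.455 and 1.46 RPKM (lowest, median and highest) in E13.5 GFP positive pools, 0, 1.64 and 5.40 RPKM in E13.5 GFP negative pools, 0, 0.22 and 2.18 RPKM in E10.5 GFP positive pools, and 0, 0.833 and 1.04 RPKM in E10.5 GFP negative pools. All 4 groups overlapped. None of its 5 comparisons passed, with limma adjusted p of 0.284 between GFP classes at E13.5, 0.875 at E10.5, 0.992 between stages in GFP positive pools, 0.209 in GFP negative pools, and 0.612 for the change of the GFP difference. The 3 pools above 2.5 RPKM were all E13.5 GFP negative, numbers 2, 4 and 6. The same 3 pools had the highest levels of Fev, a transcription factor gene of serotonergic neurons, with 30.5, 68.1 and 48.03 RPKM, whereas the other 3 E13.5 GFP negative pools had 12.2 to 24.8 RPKM and all E13.5 GFP positive pools were at 0. Serotonergic neurons are a known site of VGLUT3 in the adult hindbrain, and their part in these 3 pools was not tested.

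Slc17a7 was listed at 0 in all pools of 3 groups and had 0.0567 RPKM in 1 E13.5 GFP positive pool. An exact permutation test of E13.5 GFP positive pools against E13.5 GFP negative pools, and against E10.5 GFP positive pools, gave p = 1 in both cases (two-sided, n = 6 each). With a single value above 0 in a comparison, this p is fixed whatever the value, so the test decides nothing. The other 2 comparisons had no value above 0 and could not be tested. By its values alone, the gene that prevails in the adult cortex was not detectable here beyond a trace.

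The transporters that load other transmitters were compared in the same pools. Slc32a1, the vesicular transporter of GABA and glycine, averaged 1.28 ± 1.24 RPKM in E13.5 GFP positive pools and 6.75 ± 1.45 RPKM in E13.5 GFP negative pools (SD, n = 6 each), a difference of -1.89 ± 0.32 on the log2 scale (limma adjusted p = 0.000247). At E10.5 it averaged 0.117 ± 0.182 RPKM in GFP positive pools, 4 of them at 0, and 2.07 ± 1.23 RPKM in GFP negative pools, a difference of -1.35 ± 0.32 (limma adjusted p = 0.00402). Slc18a2, which loads dopamine and other monoamines, was 1.53 ± 0.29 higher in GFP positive pools at E13.5 (limma adjusted p = 0.000963), with 48.2 ± 18.96 RPKM in GFP positive pools, against 16.7 ± 6.72 RPKM in GFP negative pools. At E10.5 it was -0.93 ± 0.29 different in GFP positive pools (limma adjusted p = 0.0316), with 4.07 ± 1.21 RPKM in GFP positive pools and 8.80 ± 2.86 RPKM in GFP negative pools. The change of its GFP difference between stages, 2.46 ± 0.41 (limma adjusted p = 0.00031), had the same sign as that of Slc17a6.

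Within a pool, the log2 ratio of Slc17a6 to Slc32a1, with 1 added to each RPKM so that zeros can be used, sets the 2 transporters of one library against each other, and it depends on the amount added. At E13.5 it was 5.29 ± 0.88 in GFP positive pools, against 2.64 ± 0.42 in GFP negative ones (SD, n = 6 each), with all 6 GFP positive pools above all 6 GFP negative ones, a difference of 2.65 (two-sided exact permutation test p = 0.00216, the smallest this design allows; 0.00432 adjusted over the 2 stages). Most of this E13.5 difference came from Slc32a1, whose GFP positive mean was 0.19 times the GFP negative one, a difference called above. Slc17a6, at 1.74-fold, was not called, so the ratio is not a separate test of Slc17a6. At E10.5 the ratio was 1.92 ± 0.87 in GFP positive pools, against 1.49 ± 1.45 in GFP negative ones, a difference of 0.44 with overlapping values (exact permutation p = 0.5303). With 0.1 and 10 added in place of 1, the E13.5 difference was 3.50 and 1.24 (exact permutation p = 0.00216 for both), and the E10.5 difference was 2.26 (exact permutation p = 0.0649) and -0.11 (exact permutation p = 0.636).

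Other genes of the glutamate pathway were called between GFP classes about as often as all tested genes, of which 7.15% were called at E13.5 and 13.1% at E10.5. Slc17a6 was called at neither stage in the main fit. Of 16 genes of glutamate supply and recycling, all tested, 1 was higher and none lower in GFP positive pools at E13.5, and 1 was higher and 1 lower at E10.5. The higher one at both stages was Slc1a3, the glutamate uptake carrier of radial glia and astrocytes, with differences of 2.15 ± 0.46 at E13.5 (limma adjusted p = 0.00311) and 1.42 ± 0.46 at E10.5 (limma adjusted p = 0.0399). The lower one at E10.5 was Slc25a12, a mitochondrial carrier of aspartate and glutamate (-0.99 ± 0.21, limma adjusted p = 0.0013).

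Between stages, 6 of the 16 supply and recycling genes rose and 3 fell in GFP positive pools, and 5 rose and 3 fell in GFP negative pools, with medians of 0.13 and 0.38 against -0.14 and -0.11 over all tested genes. Of all tested genes, 22.1% rose and 29.6% fell in GFP positive pools, and 19.7% rose and 26.9% fell in GFP negative pools. Slc1a1, a neuronal glutamate uptake carrier, rose by 1.64 ± 0.33 in GFP positive pools (limma adjusted p = 0.000178) and by 2.26 ± 0.33 in GFP negative pools (limma adjusted p = 3.51e-06). Slc25a12 rose by 1.80 ± 0.21 in GFP positive pools and by 1.14 ± 0.21 in GFP negative pools (limma adjusted p = 4.71e-08 and 5.61e-05), while its relative Slc25a13 fell by 2.70 and by 3.23 (limma adjusted p = 2.87e-07 and 2.18e-08). Slc1a2, the main glutamate uptake carrier of the adult forebrain, rose by 1.42 ± 0.20 in GFP positive pools and by 0.74 ± 0.20 in GFP negative pools (limma adjusted p = 1.7e-06 and 0.00415). Glul, glutamine synthetase, rose by 0.87 ± 0.33 in GFP positive pools (limma adjusted p = 0.0274), whereas its difference in GFP negative pools was 0.27 ± 0.33 (limma adjusted p = 0.522).

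The machinery around the transporter rose broadly with stage. Of 16 genes of the vesicular proton pump, 13 rose and none fell in GFP positive pools, and 12 rose and none fell in GFP negative pools, with medians of 0.86 and 0.65. The largest rises were those of Atp6v0a1 in GFP positive pools (2.37 ± 0.23, limma adjusted p = 3.32e-09) and of Atp6v1g2, a neuronal pump subunit, in GFP negative pools (2.32 ± 0.21, limma adjusted p = 1.45e-09). Of 16 genes of vesicle release, 15 rose in each GFP class and none fell. Between GFP classes, 2 of the 16 pump genes and 2 of the 16 release genes were lower in GFP positive pools at E13.5, and 7 and 12 of them at E10.5, with none higher at either stage. The share of all tested genes that were lower was 3.74% at E13.5 and 8.64% at E10.5. The median difference of the release genes at E13.5 was -0.48.

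Elsewhere in the Slc17 family, Slc17a5, the sialic acid carrier of lysosomes, rose with stage in GFP positive pools by 1.39 ± 0.44 (limma adjusted p = 0.00996), and no other comparison of it passed. Slc17a9, the vesicular nucleotide transporter, was too low for the test, with at most 3.68 RPKM in a pool, and was present in 1 of 550 cells. Slc17a5 was present in 62 of 550 cells (11.3%). Slc17a1, Slc17a2, Slc17a3 and Slc17a4 were not analysed in the pools.

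Over the 24 pools, genes with a pattern like that of Slc17a6 were those that separated the stages in the same way, and the 4 groups of pools set most of the likeness. Among 9783 genes with a group mean of at least 10 RPKM, the highest Pearson correlations of log2(RPKM + 1) were those of Panx1 (0.972), Apc (0.972), Unc79 (0.972), Celf4 (0.969) and Scn3b (0.967). Scn3b encodes a sodium channel subunit, Celf4 a neuronal RNA-binding protein and Panx1 a membrane channel. Scn3b averaged 151.8 RPKM in E13.5 GFP positive pools, 117.5 RPKM in E13.5 GFP negative pools, 12.9 RPKM in E10.5 GFP positive pools and 17.3 RPKM in E10.5 GFP negative pools, the same order of groups as Slc17a6. The lowest correlations were those of Hnrnpd (-0.964), Gm5805 (-0.958), Gm13092 (-0.958), Snrpg (-0.956) and Tmpo (-0.956).

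In single cells Slc17a6 was close to an on or off gene. It was present in 32.4% of 550 cells, and 94 of them had 100 RPKM or more, 71 had 20 to 100 and 13 had 10 to 20. Only 24 cells had between 1 and 10 RPKM, so lowering the threshold to 1 RPKM added few cells. With the threshold at an RPKM of 30, the share at E13.5 was 42.1%. By stage it was present in 5 cells at E10.5 (3.65%, exact 95% interval 1.20 to 8.31), 34 at E11.5 (37.8%, 27.8 to 48.6), 67 at E12.5 (37.6%, 30.5 to 45.2), then 72 at E13.5 (49.7%, 41.3 to 58.1). The step lay between E10.5 and E11.5, where the intervals do not touch, and the intervals of neighbouring later stages overlap. Intervals cover counting error only, and cells of a stage may share an embryo.

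**Figure D2:**
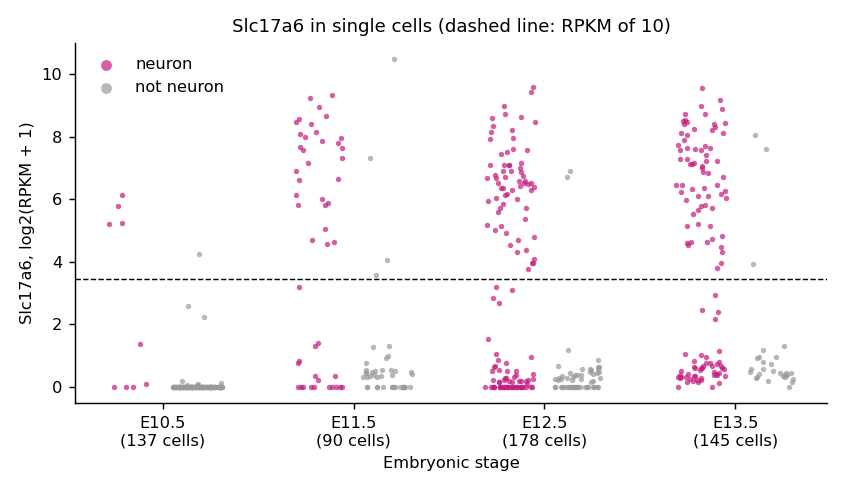
Slc17a6 as log2(RPKM + 1) (y axis) in each of 550 single cells by stage, split into neurons (left column of each stage) and other cells (right column), with the dashed line at an RPKM of 10. Cells form an upper cloud made mostly of neurons, with 10 present cells outside them, and a lower cloud near 0, with few cells between.

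Slc17a6 went with neuronal state. Neurons were defined as cells with at least 3 of Stmn2, Mapt, Dcx, Snap25, Gap43 and Ina present. It was present in 56.4% of 298 neurons (exact 95% interval 50.5 to 62.1) and in 10 of 252 other cells (3.97%, 1.92 to 7.18). Among neurons the share was 44.4% of 9 at E10.5, 62.5% of 48 at E11.5, 52.4% at E12.5, then 58.97% at E13.5, with overlapping intervals. Of cells with Sox2, a gene of neural progenitors, 2 of 85 had Slc17a6 (2.35%), and of cells with Mki67, a gene of cycling cells, 2 had it (1.98%). Even at E10.5, 4 of the 9 neurons had it, against 1 other cell (0.781%).

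The dopamine gate, cells with both Th, tyrosine hydroxylase, which makes the dopamine precursor, and Nr4a2, a nuclear receptor needed for dopamine neurons, held 43 cells, and Slc17a6 was present in 22 of them (51.2%, exact 95% interval 35.5 to 66.7). The Barhl1 gate, cells with the homeobox gene Barhl1 of the subthalamic lineage, was larger, and it was present in 73 of its cells (44.2%, 36.5 to 52.2, and 35.8% with Slc17a6 at an RPKM of at least 30). From E11.5 on the points of the dopamine gate ran downward and those of the Barhl1 gate upward. In the dopamine gate Slc17a6 was present in 0 of 2 cells at E10.5, 8 of 9 at E11.5 (88.9%, 51.8 to 99.7), 7 of 12 at E12.5 (58.3%, 27.7 to 84.8), then 7 of 20 at E13.5 (35%, 15.4 to 59.2). In the Barhl1 gate it was present in 2 of 37 at E10.5 (5.41%, 0.661 to 18.2), 11 of 26 at E11.5 (42.3%, 23.4 to 63.1), 26 of 52 at E12.5 (50%, 35.8 to 64.2), then 34 of 50 at E13.5 (68%, 53.3 to 80.5). Within each gate the intervals of all stages from E11.5 on overlap, those of E11.5 and E13.5 included. Those of the 2 gates as defined here overlap at each of these stages, and the order of the points carries the counting error of small samples. The Barhl1 gate also holds cells that are not neurons, so this overlap does not cover the neurons of the 2 gates, given below.

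In the dopamine gate Slc17a6 averaged 195 RPKM at E11.5, 106.97 at E12.5, then 48.3 at E13.5, and in the Barhl1 gate 113.9 RPKM at E11.5, 81.5 at E12.5, then 122.96 at E13.5. The Barhl1 order of means differed from that of its shares, and 1 cell that was not a neuron, at 1423 RPKM, raised its E11.5 mean, which was 61.6 RPKM without that cell. Without its highest cell, the dopamine gate averaged 70.6 RPKM at E12.5. The medians were 187.9, 83.7 and 0.685 RPKM in the dopamine gate and 1.45, 6.88 and 50.4 RPKM in the Barhl1 gate, in order of stage from E11.5. Most of the Barhl1 gate outside its neurons lacked Slc17a6. It was present in 66 of 87 Barhl1 neurons (75.9%, exact 95% interval 65.5 to 84.4) and in 7 of 78 other Barhl1 cells (8.97%, 3.69 to 17.6). When the gates were limited to neurons, a choice made after the shares were seen, the dopamine gate held it in 21 of 40 (52.5%), at 87.5% of 8 at E11.5, 58.3% of 12 at E12.5, then 35% of 20 at E13.5. Barhl1 neurons had it at 75% of 12 at E11.5, 71.4% of 35 at E12.5, then 79.5% of 39 at E13.5, with no upward course. At E13.5 the share of Barhl1 neurons, 79.5%, lay above the exact 95% interval of the dopamine gate, 15.4 to 59.2%. A later gate of the dopamine lineage, Nr4a2 with Pitx3, a homeobox gene of mature dopamine neurons, held Slc17a6 in 16 of 41 cells (39.02%), in 7 of 14 at E12.5 and 7 of 25 at E13.5. All 4 cells in both the dopamine and the Barhl1 gate had it.

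**Figure D3:**
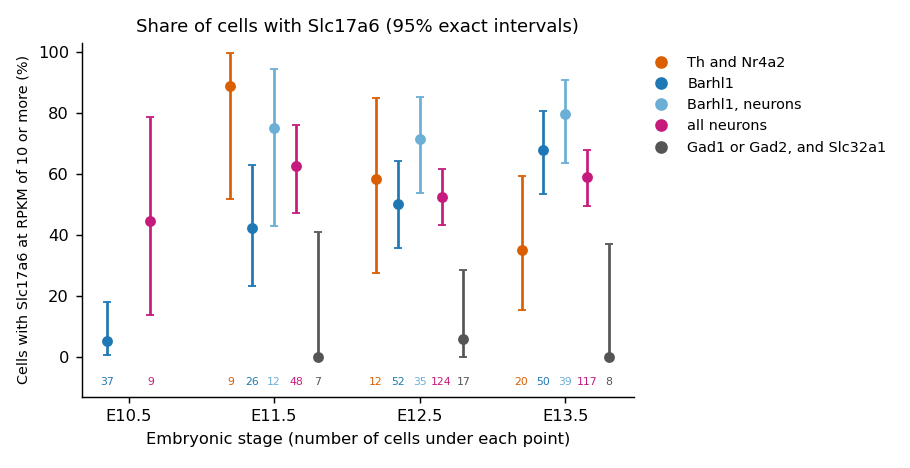
Share of cells with Slc17a6 at an RPKM of at least 10 (y axis, percent) by stage in 5 gates, with exact 95% intervals and the number of cells under each point; gates of fewer than 5 cells at a stage are left out. The dopamine gate (Th and Nr4a2) stands at 88.9%, 58.3% and 35% from E11.5 to E13.5, the Barhl1 gate at 42.3%, 50% and 68%, and the GABA gate at or near 0.

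Slc17a6 was present in 69.6% of neurons with Nr4a2, against 43.3% of neurons without Nr4a2. By stage the pairs of shares were 82.1% of 28 against 35% of 20 at E11.5, 74.1% of 58 against 33.3% of 66 at E12.5, then 60.7% of 61 against 57.1% of 56 at E13.5, where the intervals overlap widely. Of the dopamine genes, Slc6a3, the dopamine reuptake transporter, was present in 2 neurons with Slc17a6 (1.19%) and 10 of 130 without (7.69%), and Aldh1a1, an enzyme of a subset of dopamine neurons, in 0 neurons with Slc17a6 and 4 of the 130 without. Th itself was present in 13.7% of neurons with Slc17a6 and 26 of the 130 without, Pitx3 in 10.1% and 19.2%, and Ddc, the decarboxylase that makes dopamine, in 24.4% and 32.3%. Lmx1b, a LIM homeobox relative of Lmx1a, went the other way, with 47.6% of neurons with Slc17a6 and 26.9% of those without. Slc18a2 stood in 35 neurons with Slc17a6 (20.8%) and 33 without (25.4%). The monoamine transporter and Slc17a6 thus could share a cell, but Slc18a2 was no more common beside Slc17a6 than without it.

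Slc32a1 and Slc17a6 hardly ever shared a cell. The GABA gate, cells with Gad1 or Gad2, the enzymes that make GABA, together with Slc32a1, had Slc17a6 in 1 of 33 cells (3.03%, exact 95% interval 0.077 to 15.8). Among neurons, Slc32a1 was present in 1 neuron with Slc17a6 and in 33 of 130 without (25.4%). The only neuron with both was an E12.5 cell with 76.8 RPKM of Slc17a6, 46.2 RPKM of Slc32a1, 422 RPKM of Gad2 and 149.8 RPKM of Gata3, a factor of GABAergic neurons, and whether it was 2 cells in 1 well was not tested. By transporter, 44.3% of 298 neurons had Slc17a6 alone, 35 had it with Slc18a2, 29 had Slc32a1 alone, 4 had Slc32a1 with Slc18a2, 29 had Slc18a2 alone, and 68 (22.8%) had none of the 3. Slc17a6 was present in 0 of the 3 cells with Fev, a sample too small to limit the share.

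**Figure D4:**
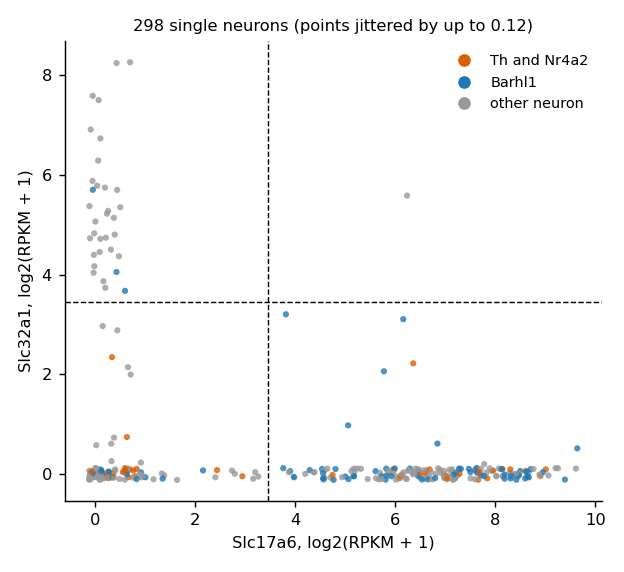
Slc32a1 (y axis) against Slc17a6 (x axis), both as log2(RPKM + 1), in 298 single neurons, coloured by gate (a neuron in both the Th and Nr4a2 gate and the Barhl1 gate is drawn as Th and Nr4a2), with dashed lines at an RPKM of 10. Neurons lie along the axes, and 1 of 298 lies in the upper right field.

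Neurons with other factors of glutamatergic lineages are set here against the share of 56.4% over all 298 neurons. All 19 neurons with Lhx9, a LIM homeobox gene, had it (exact 95% interval from 82.4%), 13 of them from E13.5, and it averaged 177.2 RPKM in them. It was present in 8 of 9 neurons with Lhx2 (51.8 to 99.7%), a close relative of Lhx9, in 19 of 28 with Tcf7l2 (67.9%, 47.6 to 84.1), a Wnt effector, and in 10 of 16 with Pou4f1 (62.5%, 35.4 to 84.8), a POU factor of the red nucleus and habenula. These 3 intervals include the share over all neurons. In pools, Lhx9 went against Slc17a6 between GFP classes at E13.5, with a difference of -3.37 ± 0.38 (limma adjusted p = 5.85e-07). Of 10 tested genes of other glutamatergic lineages, 2 were higher in E13.5 GFP positive pools and 5 were lower. The 2 higher ones were Ebf2 (2.09 ± 0.27, limma adjusted p = 4.22e-06) and Neurod6 (1.78 ± 0.31, limma adjusted p = 0.000393), and the largest drops were those of Tcf7l2 (-4.35 ± 0.26, limma adjusted p = 7.72e-12) and Sim1 (-3.55 ± 0.31, limma adjusted p = 9.78e-09). Of 6 genes of the Barhl1 and subthalamic lineage, all 6 were higher in GFP positive pools at E13.5, and of 10 GABAergic genes 9 were lower. Over all tested genes, 3.42% were higher and 3.74% lower in this comparison.

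Among 8393 genes present in at least 10% of the 298 neurons, the pattern most like Slc17a6 was that of Cacna2d1 (Pearson r = 0.469 over cells that share libraries' depth and stage), a calcium channel subunit present in 75.6% of neurons with Slc17a6 and 33.1% of the 130 without. Also among the 5 most alike were Nhlh2, a neuronal bHLH factor (0.361), Chst8, a sulfotransferase (0.341), and Lmx1a (0.311). These 4 were above 0.2 at each of E11.5, E12.5 and E13.5. The least alike were Gad2 (-0.399), Slc32a1 (-0.399), Gm14204 (-0.373), Gad1 (-0.370) and Nrxn3 (-0.289), a presynaptic adhesion gene. Gm14204 is a noncoding transcript on the minus strand that starts at chr2:158610723. Slc32a1 starts close by, at chr2:158610767 on the plus strand, so the 2 run away from each other and do not overlap as annotated. Whether reads were counted by strand is not given in the sources used here.

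Split by the reporter's own RNA, Slc17a6 was present in 50 of 219 cells with EGFP (22.8%, exact 95% interval 17.4 to 28.97) and in 38.7% of 331 without (33.4 to 44.2). Among neurons the order was the other way round, with 43 of 54 EGFP neurons (79.6%, 66.5 to 89.4) against 51.2% of 244 neurons without EGFP (44.8 to 57.7). At E13.5 it was 75% of 20 EGFP neurons and 55.7% of 97 others. Neurons made up 54 of the 219 EGFP cells and 244 of the 331 others. The mean over all E13.5 cells was 87.7 RPKM with EGFP and 84.2 RPKM without, beside 81.4 RPKM in GFP positive pools and 46.8 RPKM in GFP negative pools, and the EGFP gate of cells is not the sort that made the pools.

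Slc17a8 was present in 2 of 550 cells (0.364%, exact 95% interval 0.044 to 1.31) and above 0 in 7. It was present in 0 of 43 cells of the dopamine gate, which allows a share of up to 6.98%, 0 cells of the Barhl1 gate, up to 1.82%, and 0 of 298 neurons, up to 1.01%. Of the 2 cells with it, the E12.5 one had 308 RPKM, with 51.2 RPKM of Fev, 748 RPKM of Gata2 and 93.7 RPKM of Gata3, factors shared by serotonergic and GABAergic neurons, but 0 RPKM of Tph2 and Slc6a4, the enzyme and reuptake carrier of mature serotonergic neurons. The other 2 cells with Fev had Tph2 and Slc6a4 at 580 RPKM or more and Slc17a8 at 0. The second cell with Slc17a8 was from E10.5, at 80.04 RPKM, with 382 RPKM of EGFP and 153.6 RPKM of Lmx1a and no Stmn2 beyond 0.345 RPKM. Neither of these cells met the definition of a neuron used here. Tubb3, a pan-neuronal gene outside that definition, was at 1603 RPKM in the E12.5 cell and 214.7 RPKM in the E10.5 cell. The limit of 1.01% thus holds only for cells that met the definition. Slc17a7 was present in 0 of 550 cells, which allows a share of up to 0.545%, and so in 0 of 43 dopamine gate cells and no cell of the Barhl1 gate.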

How the data were processed

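RNA of 24 pools and 550 single cells was sequenced with Smart-seq2, per the labels, and aligned with STAR 2.3.0 to build mm10, as listed in the submitters' processing notes. The read counter, annotation and strand setting are not stated there. The cells were 137 from E10.5, 90 from E11.5, 178 from E12.5 and 145 from E13.5, with 165 in the Barhl1 gate and 168 neurons with Slc17a6. The authors deposited RPKM for the pools and log2 values for the cells, log2(RPKM + 0.001) as its lowest value shows, which were turned back into RPKM. The EGFP reporter was left out of the fit.

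Values of log2(RPKM + 1) of the pools were fitted with limma 3.58.1 (R 4.3.3), 4 group means in 1 model with a variance trend and Benjamini-Hochberg adjustment over 15871 genes (those reaching an RPKM of 1 in 6 or more pools). The alternatives were pseudocounts of 0.1 and 10, no filter, quantile normalization, rescaling without globin, contrast groups only, array weights and each pool left out. On simulated data the E13.5 GFP comparison recovered 67% of 100 genes changed 2-fold and 97% of 100 changed 4-fold, with 3 false calls among 167. The changed genes were drawn from those with a mean log2(RPKM + 1) above 3. These rates therefore do not cover low genes such as Slc17a8.

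The tables used here hold RPKM, not counts. Whole reads could not be recovered (within 0.05, for 36.1% of the lowest values of a median pool and 33.3% of a median cell, where chance gives 10%), so no count test was run. Shares carry exact 95% Clopper-Pearson intervals. A count of 0 allows up to 3 cells of the total. Genes outside the family were named from 18 lists, as the 2 largest called differences of a list or as fixed names, and by likeness (5 at each end). The factors of neurons beside Slc17a6, the Fev levels beside Slc17a8 and the cells described singly were chosen after their values were seen. The family and the lists were chosen with earlier results of these data known. Ebf1 and Slc18a3 were not analysed here, and results on some listed genes are not reported here.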

Additional observations from a re-analysis of the deposited data

Results flagged for a closer look

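The GFP difference of Slc17a6 changed between E13.5 and E10.5 by 1.68 on the log2 scale (limma adjusted p = 0.0341), with GFP positive pools higher at E13.5 in 6 of 6 and overlapping at E10.5. In groups of 6 pools, 23 sets of values were screened for a pool far from the others, and chance picks out about 1 set in 20. A single pool stood apart in 2 of them: Slc17a7 at 0.0567 RPKM in 1 E13.5 GFP positive pool with the other 5 at 0, and Slc18a2 at 84.9 RPKM in an E13.5 GFP positive pool with the next at 48.5.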

How the results depend on the processing

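No paired analysis was possible because the labels give the pools no replicate numbers, so the numbers used here only name them. Over 492 recomputed values, 457 kept their direction and side of the threshold or moved by less than their error, 13 fell below the threshold, 6 passed it, 7 moved and 9 changed sign. The rise of Slc17a6 with stage passed under all 7 alternatives and all 12 fits that left out a pool, at 4.09 to 4.51 in GFP positive pools and 2.3 to 2.77 in GFP negative pools without 1 pool. Over the 7 alternatives it was 2.72 to 4.67 in GFP positive pools and 1.69 to 2.78 in GFP negative pools, lowest with a pseudocount of 10 and highest with 0.1. The change of its GFP difference was lost with a pseudocount of 0.1 (1.89, limma adjusted p = 0.060) and with no filter (1.68, limma adjusted p = 0.0586), and ranged from 1.496 to 1.96 without 1 pool; the cause was not tested. Its GFP difference ranged from 0.66 to 0.83 at E13.5 and from -1.20 to -0.73 at E10.5 without 1 pool, and passed at E13.5 with a pseudocount of 10 (0.67) and with the contrast's own groups (0.77), and at E10.5 with array weights (-1.04). Slc17a8 changed sign, never passing, between stages in GFP positive pools with a pseudocount of 0.1 (0.028), without globin (0.0156) and without 1 pool (-0.15 to 0.21), and between GFP classes at E10.5 with quantile normalization (0.11). The ratio of Slc17a6 to Slc32a1 at E10.5 changed sign with 10 added (-0.11). The share of Barhl1 cells with Slc17a6 moved to 35.8% at an RPKM of at least 30 and to 75.9% among neurons, and that of the GABA gate to 0% when E12.5 was limited to cells with titles in C. Low genes such as Slc17a8 and Slc17a7 are limited by depth, and p-values by 6 pools a group.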

Other observations

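Below the threshold, Slc17a6 left a trace in many cells at the later stages. It lay above 0 but below 1 RPKM in 4.38% of cells at E10.5, 27.8% at E11.5, 30.3% at E12.5, then 42.1% at E13.5, where only 3 cells were at 0. Among other genes whose share of present cells lay within 5 percentage points of that of Slc17a6 at the same stage, the median share of cells between 0 and 1 RPKM was 4.44% at E11.5 (957 genes), 10.1% at E12.5 (1073 genes), then 13.8% at E13.5 (712 genes), and 99.6%, 98.7% and 100% of these genes had a smaller share than Slc17a6. These genes were not matched for transcript length. A single read gives a lower RPKM in a longer transcript, and the part of length in this comparison was not tested. The 33 cells of the GABA gate, of which 1 had Slc17a6 present, had it above 0 in 18, including all 8 at E13.5.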
